A study of Mus musculus with 18 samples.

Results

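The ion channels that set the excitability of the muscle fiber membrane were followed in the muscles of myotonic dystrophy type 1 (DM1) mice. The 9 genes were chosen by name for their known roles, with earlier results of these data in view, out of 46725 genes in the counts: the chloride channel Clcn1, the sodium channel Scn4a, the calcium channel subunits Cacna1s, Cacnb1, Cacna2d1 and Cacng1, and the potassium channels Kcnj2, Kcnj11 and Kcnn3. All 9 passed the filter on low counts in both muscles, and their exons were divided in the annotation into 238 of the 391858 exon bins, a bin being a stretch of exon between neighboring annotated exon ends. Gastrocnemius and quadriceps RNA was taken from 9 mice (3 WT, 3 HSA-LR and 3 HSA-LR given Pip6a-PMO), which gave 18 libraries. All mice were of the FVB strain and 20 weeks old. HSA-LR mice carry a human skeletal α-actin transgene with an expanded CTG repeat, which is expressed in skeletal muscle, and they were labelled as untreated. Pip6a-PMO is an antisense morpholino against the repeat, joined to a cell-penetrating peptide and given into a vein, and the dose given to the sequenced mice is not given in the sources used here. The treated mice carried the same transgene, so that HSA-LR minus WT compares transgenic with WT mice and Pip6a-PMO minus HSA-LR compares treated with untreated transgenic mice.

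A muscle fiber fires when voltage-gated sodium channels open, and it returns to rest through chloride and potassium conductances. The chloride channel ClC-1, the product of Clcn1, carries most of the resting conductance of the fiber, and its loss lets fibers fire repeatedly, which is felt as myotonia. The L-type calcium channel, also called the dihydropyridine receptor, sits in the transverse tubules and couples the action potential to calcium release from the sarcoplasmic reticulum. In DM1, the repeat RNA holds MBNL proteins, which direct the switch from fetal to adult splicing of many muscle transcripts, among them that of Clcn1.

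The sequences of 5 alternative exons of these genes are shown because the exon comparisons turn on them. Each is written from 5′ to 3′ on the strand of the gene, with the exon in capitals and the neighboring exon bases of the same transcript in lower case, from GENCODE M21 on GRCm38. Clcn1 exon 7a is exon 7 of the 24-exon transcript Clcn1-207, and lies on chromosome 6 from 42293444 to 42293522. Its 79 bases are not a multiple of 3, and the stop codon tga of that transcript closes the printed run, 17 bases after the exon. A further Clcn1 exon of 119 bases, exon 5 of Clcn1-203 (chromosome 6, 42312015 to 42312133), belongs to a transcript annotated for nonsense-mediated decay and holds the stop codon itself. Cacna1s exon 29 of the 44-exon Cacna1s-204 (chromosome 1, 136104570 to 136104626) and Cacna2d1 exon 19 of the 39-exon Cacna2d1-201 (chromosome 5, 16322539 to 16322595) each have 57 bases and keep the reading frame when left out. Cacnb1 exon 7 of the 14-exon Cacnb1-201 (chromosome 11, 98010627 to 98010646, minus strand) has 20 bases.
Clcn1 exon 7a: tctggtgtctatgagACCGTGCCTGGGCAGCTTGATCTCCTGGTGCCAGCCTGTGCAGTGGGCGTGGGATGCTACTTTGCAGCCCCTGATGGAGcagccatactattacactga
Clcn1 exon with its own stop: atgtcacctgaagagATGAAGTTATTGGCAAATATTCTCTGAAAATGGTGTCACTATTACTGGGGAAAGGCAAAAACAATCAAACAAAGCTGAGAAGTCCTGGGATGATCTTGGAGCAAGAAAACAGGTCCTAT
Cacna1s exon 29: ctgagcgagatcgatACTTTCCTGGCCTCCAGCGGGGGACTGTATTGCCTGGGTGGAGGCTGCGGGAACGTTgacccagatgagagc
Cacna2d1 exon 19: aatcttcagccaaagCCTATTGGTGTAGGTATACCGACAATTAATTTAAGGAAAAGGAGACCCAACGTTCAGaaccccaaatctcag
Cacnb1 exon 7: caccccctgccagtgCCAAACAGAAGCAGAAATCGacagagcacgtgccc

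The libraries held 98916844 to 143135976 counts. A read pair that overlapped several bins counted in each of them, so that the level of a gene is its summed bin count after TMM normalization, scaled to CPM (counts relative to the library total, on the usual scale). In the gastrocnemius of treated mouse 3, the log2 ratio of 5′ to 3′ coverage was -0.45, against -0.20 to -0.11 in the other 17 libraries. WT mouse 2 is labelled female but had Y-linked genes at 154 and 181.5 CPM in its muscles, and WT mouse 3 is labelled male but had them at 1.15 and 1.43 CPM, against 119 to 187 CPM in the other mice. By these counts WT mouse 3 alone was without Y-linked expression, so sex was not balanced between WT and the other groups. The part of sex in the comparisons with WT was not tested beyond leaving mice out. The fits were therefore repeated without each of these mice, and calls that depended on them are given with the results. All 10 fast-fiber markers were detected in each group.

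The gene levels were compared first, to ask which channels differ in transcript level in HSA-LR muscle and in treated muscle. A gene was called at an adjusted P under 0.1 in the quasi-likelihood test of edgeR, adjusted by the Benjamini-Hochberg method over all genes tested. In the gastrocnemius of HSA-LR mice, 3 of the 9 genes were called against WT (Clcn1 lower, Cacng1 and Kcnn3 higher), where 15.5% of all genes were called. In the quadriceps, 5 of the 9 were called (Clcn1 and Scn4a lower, Cacng1, Kcnj2 and Kcnn3 higher), where 20.3% of all genes were called. The median log2 FC of the 9 genes was 0.14 in the gastrocnemius and 0.07 in the quadriceps, against -0.01 and 0.01 over all genes tested. After treatment, 2 of 9 were called against HSA-LR in the gastrocnemius (Clcn1 and Kcnn3), with a background of 10%, and 4 of 9 in the quadriceps (Clcn1, Scn4a, Cacng1 and Kcnn3), with a background of 13.8%. Against WT, 0 of 9 were called in the treated gastrocnemius (edgeR, background 1.04%), where 0 had an unadjusted P under 0.05 and DESeq2 called 0. In the treated quadriceps, 1 of 9, Kcnn3, was called against WT (background 1.41%).

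**Figure D1:**
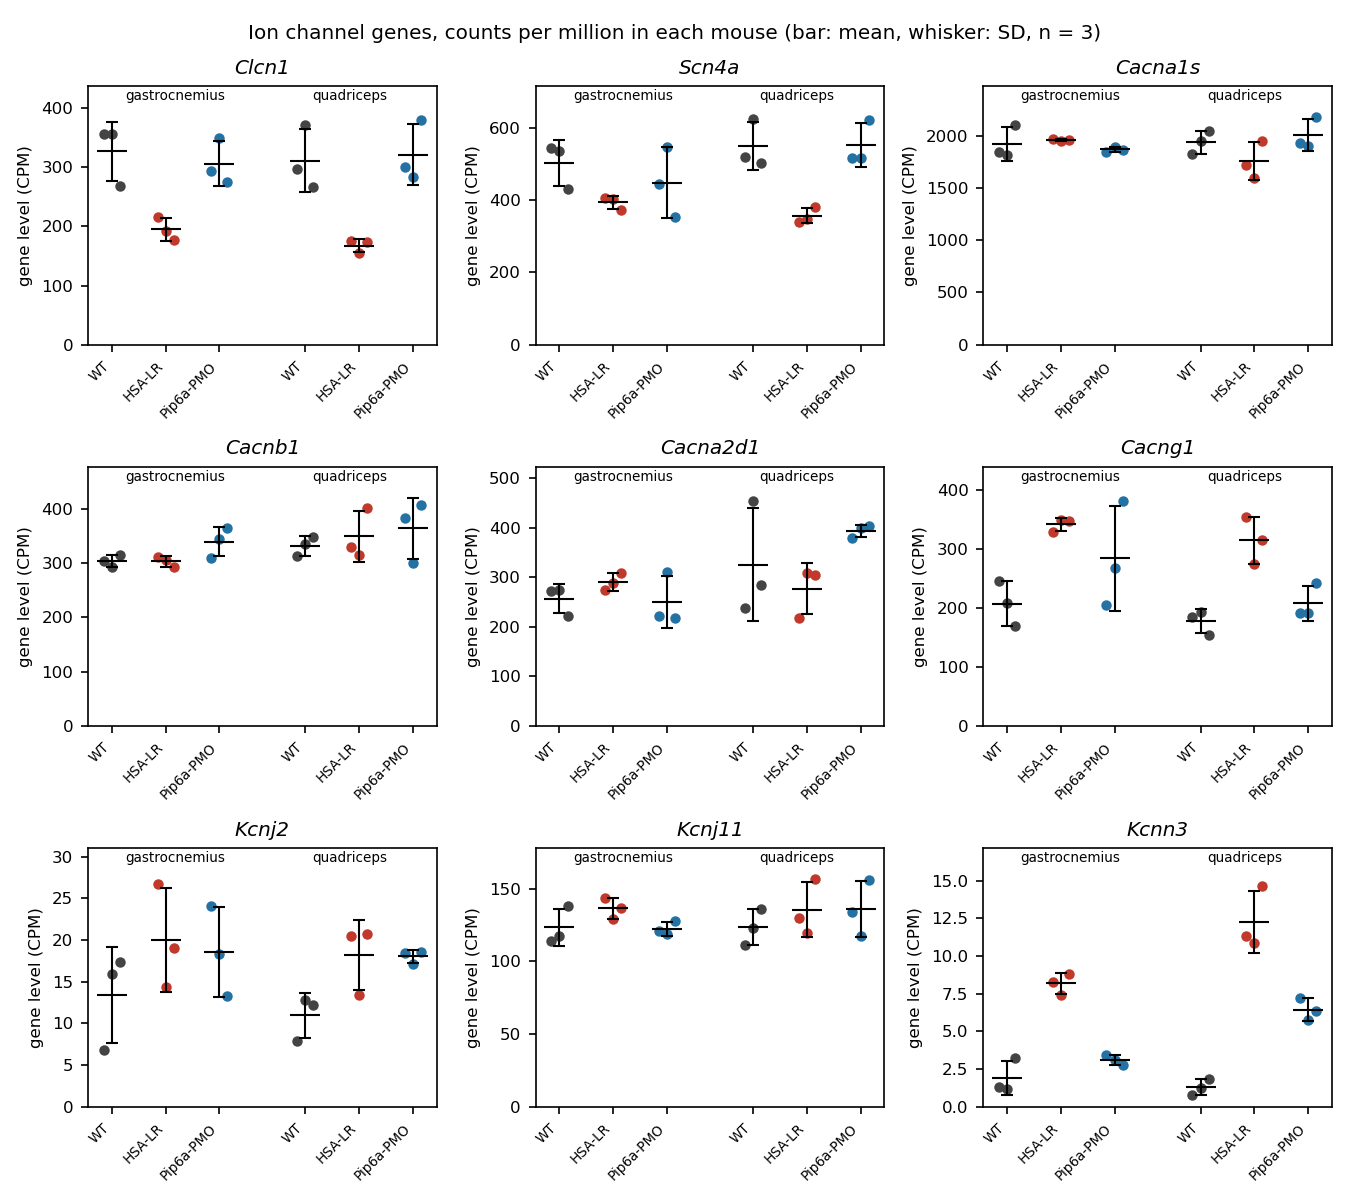
Level of each of the 9 channel genes in CPM (vertical axis, linear from 0) in the WT, HSA-LR and Pip6a-PMO treated groups of each muscle. Each point is a mouse, the bar is the mean and the whisker the SD. HSA-LR points of Clcn1 lie below all WT points and those of Kcnn3 above them in both muscles, while HSA-LR and WT points of Cacna1s, Cacnb1 and Kcnj11 overlap in both.

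Clcn1 was lower in every HSA-LR library than in any WT library. In the gastrocnemius, its level was 356, 356 and 269 CPM in the WT mice, 216, 193 and 177 CPM in the HSA-LR mice and 294, 349 and 275 CPM in the treated mice. The treated mice lay above all HSA-LR mice and among the WT mice. The log2 FC was -0.76 ± 0.14 (SE, adjusted P = 0.0106) for HSA-LR minus WT and 0.66 ± 0.14 (adjusted P = 0.0308) for Pip6a-PMO minus HSA-LR by edgeR. The latter call was lost without HSA-LR mouse 2 (adjusted P = 0.116) or mouse 3 (adjusted P = 0.104), with log2 FCs of 0.65 and 0.59 by edgeR. In the quadriceps, the level was 296, 371 and 267 CPM in WT, 174, 155 and 173 CPM in HSA-LR and 301, 283 and 379 CPM in treated mice. Here, too, the HSA-LR group stood apart from both others. The log2 FC was -0.89 ± 0.15 (adjusted P = 0.00535) and 0.94 ± 0.15 (adjusted P = 0.00929) for these comparisons by edgeR. Treated minus WT gave -0.10 ± 0.14 in the gastrocnemius and 0.05 ± 0.14 in the quadriceps, neither of them called (adjusted P = 0.865 and 0.918, edgeR). In bulk muscle, fewer cells of a type and less RNA per cell cannot be told apart.

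Scn4a encodes Nav1.4, the sodium channel that carries the upstroke of the muscle action potential. In the quadriceps, its level was 519, 625 and 502 CPM in WT mice, 340.5, 349 and 380.3 CPM in HSA-LR mice and 516, 517 and 622 CPM in treated mice. The HSA-LR mice lay below all others, with a log2 FC of -0.62 ± 0.11 (adjusted P = 0.00909) against WT and a rise of 0.63 ± 0.11 (adjusted P = 0.0169) with treatment by edgeR. In the gastrocnemius, the levels were 545, 536 and 429.7 CPM in WT, 406, 403 and 374 CPM in HSA-LR and 444, 548 and 353 CPM in treated mice. The HSA-LR mice again lay below the WT mice, but the log2 FC of -0.36 ± 0.16 was not called (adjusted P = 0.188, edgeR). It was called with the largest bin of the gene (adjusted P = 0.0338), with the coverage ratio as a covariate (adjusted P = 0.0339), with the 2 groups fitted alone (adjusted P = 0.0754) and without treated mouse 3 (adjusted P = 0.0805), all by edgeR. That mouse had the lowest Scn4a level of the treated group and the coverage ratio that stood apart, and the part of coverage in its level was not tested further.

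The subunits of the dihydropyridine receptor differed among themselves. Cacna1s encodes its pore and was the most abundant of the 9 genes per length of exon, with 294 ± 24.5 CPM per kilobase (SD, n = 3) in WT gastrocnemius. Its level was 1820 to 2108 CPM in WT, 1951 to 1966 CPM in HSA-LR and 1849 to 1895 CPM in treated gastrocnemius, and the WT range held all others. The treated mice lay just below the HSA-LR mice there. In the quadriceps it was 1824 to 2046, 1595 to 1955 and 1904 to 2182 CPM in the same order. The log2 FC for HSA-LR minus WT was 0.02 ± 0.09 in the gastrocnemius and -0.14 ± 0.10 in the quadriceps (adjusted P = 0.939 and 0.438, edgeR). Treatment gave -0.06 ± 0.09 and 0.19 ± 0.10, not called either.

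Cacnb1 encodes the intracellular β1 subunit, which brings the pore to the tubule membrane. Its level was 292 to 315 CPM in WT, 293 to 312 CPM in HSA-LR and 310.5 to 365 CPM in treated gastrocnemius, and 313 to 349, 316 to 403 and 302 to 408 CPM in the quadriceps. The groups overlapped, and the log2 FCs for HSA-LR minus WT were -0.01 ± 0.09 and 0.07 ± 0.13 (adjusted P = 0.945 and 0.782, edgeR). The treatment comparison gave 0.17 ± 0.09 and 0.06 ± 0.13.

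Cacna2d1 encodes the extracellular α2δ1 subunit. In the quadriceps its level was 237, 454 and 283 CPM in WT, 218, 308 and 304 CPM in HSA-LR and 379, 398 and 402 CPM in treated mice. The WT range held all treated mice and overlapped with that of the HSA-LR mice, whose mouse 1 was lowest, and the treated mice all lay above the HSA-LR mice, with a log2 FC of 0.51 ± 0.23 that was not called (adjusted P = 0.193, edgeR). It was called with the 2 groups fitted alone (adjusted P = 0.0806) and without WT mouse 2 (adjusted P = 0.0773), both by edgeR. The log2 FC for HSA-LR minus WT was 0.17 ± 0.15 in the gastrocnemius and -0.23 ± 0.23 in the quadriceps (adjusted P = 0.536 and 0.579, edgeR). In the gastrocnemius, treatment gave -0.21 ± 0.15.

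Cacng1 encodes the γ1 subunit, which damps the calcium current, and it was the only one of these 4 genes called. In the quadriceps its level was 185, 193 and 154 CPM in WT, 354, 274 and 316 CPM in HSA-LR and 191, 191 and 242 CPM in treated mice. The HSA-LR mice lay above all others, with log2 FCs of 0.83 ± 0.13 (adjusted P = 0.00523) against WT and -0.59 ± 0.13 (adjusted P = 0.0360) with treatment by edgeR. The treatment call was lost with the coverage covariate and without HSA-LR mouse 1 or treated mouse 1 or 2. In the gastrocnemius the levels were 245, 208 and 169 CPM in WT, 329, 349.9 and 347 CPM in HSA-LR and 205, 267 and 381 CPM in treated mice. The rise of 0.71 ± 0.21 against WT was called (adjusted P = 0.0633, edgeR), but not without WT mouse 2 or 3, without any one HSA-LR mouse, or with the mouse number as a block. The treated gastrocnemius samples spread over both other groups, and -0.26 ± 0.21 against HSA-LR was not called (adjusted P = 0.502, edgeR).

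Of the potassium channels, Kcnj2 encodes Kir2.1, an inward rectifier that holds the resting potential. In the quadriceps it stood at 7.87, 12.8 and 12.2 CPM in WT, 20.6, 13.4 and 20.8 CPM in HSA-LR and 18.5, 17.2 and 18.5 CPM in treated mice. Both transgenic groups lay above the WT mice. The log2 FC for HSA-LR minus WT was 0.74 ± 0.21 (adjusted P = 0.0483, edgeR), and it was not called without HSA-LR mouse 1 or 3, without WT mouse 1 or with the 2 groups fitted alone. Treatment left it at -0.01 ± 0.21 against HSA-LR, and 0.73 ± 0.21 against WT was not called by edgeR (adjusted P = 0.209) but was by DESeq2. In the gastrocnemius the WT mice ran from 6.84 to 17.4 CPM, the HSA-LR mice from 14.3 to 26.7 CPM and the treated mice from 13.3 to 24.1 CPM. The log2 FCs of 0.57 ± 0.36 against WT, -0.10 ± 0.36 with treatment and 0.47 ± 0.36 for treated minus WT were not called (adjusted P = 0.370, 0.897 and 0.705, edgeR).

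Kcnj11 encodes Kir6.2, the pore of the ATP-sensitive potassium channel. It ranged from 111 to 138 CPM in WT mice, from 119.8 to 157 CPM in HSA-LR mice and from 118 to 156 CPM in treated mice over both muscles. The log2 FCs for HSA-LR minus WT were 0.14 ± 0.09 and 0.14 ± 0.14 (adjusted P = 0.397 and 0.578, edgeR), and treatment gave -0.15 ± 0.09 in the gastrocnemius and 0.01 ± 0.14 in the quadriceps. The treated gastrocnemius samples lay below the HSA-LR samples without overlap, and the other groups overlapped.

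Kcnn3 encodes SK3, a small-conductance calcium-activated potassium channel that is abundant in fetal and denervated muscle and scarce in innervated adult fibers. It showed the largest log2 FC of the 9 genes. In the gastrocnemius its level was 1.32, 1.18 and 3.23 CPM in WT, 8.26, 7.44 and 8.83 CPM in HSA-LR and 3.45, 3.07 and 2.77 CPM in treated mice. Its quadriceps level was 0.756, 1.27 and 1.83 CPM in WT, 11.3, 10.8 and 14.6 CPM in HSA-LR and 7.23, 5.76 and 6.35 CPM in treated mice. The HSA-LR mice were highest in both muscles, and the treated quadriceps samples lay between the other groups without touching either. The log2 FC for HSA-LR minus WT was 2.09 ± 0.34 (adjusted P = 0.00560) in the gastrocnemius and 3.25 ± 0.29 (adjusted P = 0.000325) in the quadriceps by edgeR. Treatment gave -1.39 ± 0.33 (adjusted P = 0.0448) and -0.92 ± 0.27 (adjusted P = 0.0724) by edgeR. The quadriceps call was lost without any one HSA-LR or treated mouse, and the gastrocnemius call was lost without any one HSA-LR mouse or treated mouse 2 or 3. Both were lost with the coverage covariate. Against WT, treated quadriceps had a log2 FC of 2.33 ± 0.29 (adjusted P = 0.0121, edgeR), which was lost only with the coverage covariate, and treated gastrocnemius had 0.69 ± 0.33 (adjusted P = 0.515, edgeR), which was called without WT mouse 3. Most Kcnn3 counts lay in its last bin of 7371 bases, the end of a retained-intron transcript, with 80.1%, 65.0% and 77.5% of the gene in WT, HSA-LR and treated gastrocnemius and 74.4%, 65.2% and 64.6% in the quadriceps. Without that bin, chosen after the values were seen, 31 to 83 counts remained in WT and 322 to 403 in HSA-LR gastrocnemius, and the log2 FC for HSA-LR minus WT was 2.95 in the gastrocnemius and 3.69 in the quadriceps. Treatment then gave -2.01 and -0.91, of which the quadriceps value was no longer called (adjusted P = 0.101, edgeR).

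**Figure D2:**
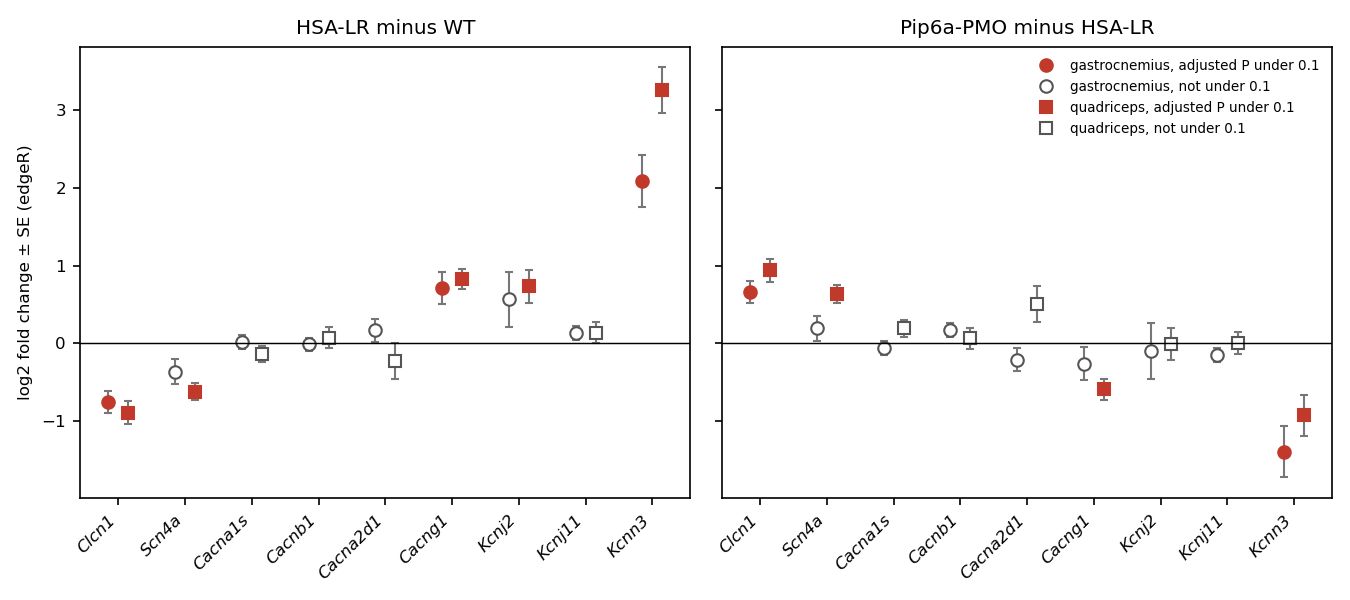
Log2 fold change with its standard error from edgeR (vertical axis) for each of the 9 channel genes (horizontal axis), for HSA-LR minus WT on the left and Pip6a-PMO minus HSA-LR on the right. Circles are the gastrocnemius and squares the quadriceps, filled where the adjusted P is under 0.1. Clcn1 is filled below 0 on the left and above 0 on the right in both muscles, and Kcnn3 the other way round.

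Some markers of fiber states and of other cells were also called between these groups, and their part in the channel results was not tested. A marker is said to rise or fall where it was called. Of all genes, 15.5% were called in the gastrocnemius and 20.3% in the quadriceps in HSA-LR minus WT, and 10% and 13.8% with treatment. Of 8 markers of denervated or regenerating fibers, 4 rose in HSA-LR gastrocnemius, and 4 rose and 1 fell in HSA-LR quadriceps. Their summed level was 48.0 to 82.1 CPM in WT and 98.7 to 117 CPM in HSA-LR gastrocnemius, with 58.6 to 85.5 CPM after treatment, and none of them was at 0. The quadriceps values were 46.0 to 57.0, 76.7 to 91.7 and 60.2 to 70.5 CPM. Of 5 macrophage markers, 2 rose in the gastrocnemius and 4 in the quadriceps. All 5 Schwann cell markers, 3 of 4 endothelial and 3 of 4 smooth muscle markers fell in HSA-LR quadriceps, against 0, 0 and 2 in the gastrocnemius. Of 10 fast-fiber markers, 1 rose and 1 fell in the gastrocnemius and 5 fell in the quadriceps. None of the slow-fiber (7), adipocyte (6) or erythroid (5) markers was called in HSA-LR minus WT, though the slow-fiber markers had a median log2 FC of -2.24 in the quadriceps. With treatment, 5 of the 10 fast-fiber markers rose and 1 fell in the gastrocnemius, with a median log2 FC of 0.58, and 3 rose in the quadriceps, with a median of 0.38. Of the 8 denervation markers, 2 fell in the gastrocnemius and 3 in the quadriceps. In the same comparison, 5 of 7 slow-fiber markers rose in the quadriceps, where their summed level was 184 to 524 CPM in WT, 85.2 to 192 CPM in HSA-LR and 105 to 2010 CPM in treated mice. Of the 5 macrophage markers, 3 fell in the gastrocnemius and 4 in the quadriceps with treatment, and 4 of 5 Schwann cell markers rose in the quadriceps. The denervation list shares 1 gene with the list of excitability genes described last.

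The muscles were then compared with each other. Ordered by CPM per kilobase, WT levels ran Cacna1s, Cacng1, Scn4a, Cacnb1, Clcn1, Kcnj11, Cacna2d1, Kcnj2 and Kcnn3 in both muscles. In the gastrocnemius, Scn4a (71.5 ± 9.07, SD, n = 3) and Cacnb1 (67.1 ± 2.48) differed by less than the larger SD, and so did Cacnb1 and Clcn1 (60.2 ± 9.24). In the quadriceps this held for Scn4a (77.9 ± 9.44) and Cacnb1 (73.5 ± 4.08) and for Kcnj11 (33.5 ± 3.38) and Cacna2d1 (26.2 ± 9.17). With the largest bin of each gene, Cacnb1 moved to place 2, Cacng1 to place 3 and Cacna2d1 to place 5. The fits over both muscles took the groups as independent and did not pair the muscles of a mouse. An alternative fit with the mouse as a block did not change the counts of channel genes called that follow. None of the 9 genes was called in WT quadriceps minus WT gastrocnemius, where 0.297% of all genes were called by edgeR, 0 of the 9 had an unadjusted P under 0.05 and DESeq2 called 0. The difference of the HSA-LR effect and that of the Pip6a-PMO effect between the muscles were each called for 0 of 9 genes (edgeR, background 0% for each), with 1 and 2 of them at an unadjusted P under 0.05 and 0 by DESeq2. The former was Kcnn3, and the latter were Cacna2d1 and Scn4a.

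Over the 18 libraries, the genes most like each channel in log2 CPM were found by Pearson's r, as a description over libraries that share groups and mice. Clcn1 was most like Kbtbd12 (r = 0.965) and Vamp1 (0.960), and Scn4a most like Ide (0.942) and Ubxn2a (0.936). Kcnn3 was most like Arhgap44 (0.963) and Fsd1l (0.952), and Cacng1 most like Pkig (0.944) and Bin1 (0.935). Among the most like of the others were Mthfd1 (0.832) and Tigd4 (0.814) for Cacna1s, Bckdk (0.888) for Cacnb1, Sox6 (0.949) and Washc4 (0.933) for Cacna2d1, and Ccdc66 (0.850) for Kcnj2. Kcnj11 was most like Slc25a12 (0.846) and Abcc8 (0.814), which encodes SUR1, a regulatory subunit of the ATP-sensitive channel.

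Exon use was compared next, as the share of each bin in the counts of its gene. Of 222 bins of the 9 genes tested in each muscle, 5 were called in HSA-LR minus WT in the gastrocnemius (2.25%, against 0.819% of all bins) and 6 in the quadriceps (2.70%, against 0.284%). They all rose, and they belonged to Clcn1 and Cacnb1 alone. With treatment, the same 5 bins fell in the gastrocnemius (background 0.309%), and 3 of the 6 fell in the quadriceps (background 0.168%). Treated minus WT gave 0 calls of 222 in the gastrocnemius (background 0.0654%) and 0 in the quadriceps (background 0.0353%) by edgeR's diffSpliceDGE, with 1 and 5 bins at an unadjusted P under 0.05, and limma voom with diffSplice called 0 in each. None of the bins of Scn4a, Cacna1s, Cacna2d1, Cacng1, Kcnj2, Kcnj11 or Kcnn3 was called in these comparisons by diffSpliceDGE with the 9 libraries of a muscle fitted together. In other settings a Cacna1s bin was called, as given with exon 29, and limma voom called the last bin of Kcnn3 in HSA-LR minus WT in the gastrocnemius. In that comparison limma voom also called Cacnb1 bins 1 and 2, toward the 3′ end of that gene. The coverage covariate called bins 2 and 3, and the 2 groups fitted alone bin 2. The log2 change of bin 1 was -0.52 ± 0.14, not called by diffSpliceDGE (adjusted P = 0.445).

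Clcn1 exon 7a, printed above, shifts the reading frame where it is included. Set against the mean count of the exons on either side, it stood at 2.66%, 5.15% and 5.92% in WT, 56.2%, 62.4% and 50.6% in HSA-LR and 6.83%, 6.08% and 7.88% in treated gastrocnemius. In the quadriceps it was 3.65%, 3.57% and 3.48% in WT, 55.0%, 58.0% and 55.7% in HSA-LR and 8.16%, 6.88% and 4.45% in treated mice. The HSA-LR mice stood far above both other groups, and all treated mice lay above all WT mice in each muscle. As a share of all Clcn1 counts, the exon went from 0.112% in WT to 1.19% in HSA-LR and 0.153% in treated gastrocnemius, and from 0.0898% to 1.14% and 0.165% in the quadriceps. Each of these differences, treated minus WT included, had P = 0.1 in a two-sided exact permutation test, the smallest that 3 mice against 3 allow. The bin's log2 change was 3.43 ± 0.22 and 3.65 ± 0.23 for HSA-LR minus WT and -2.96 ± 0.21 and -2.82 ± 0.21 for treatment in the gastrocnemius and the quadriceps (diffSpliceDGE adjusted P = 3.14e-34, 3.69e-35, 9.15e-28 and 4.51e-23). Treated minus WT gave 0.47 ± 0.23 and 0.84 ± 0.23, with unadjusted P = 0.0602 and 0.00339 and an adjusted P of 1 in each by diffSpliceDGE.

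**Figure D3:**
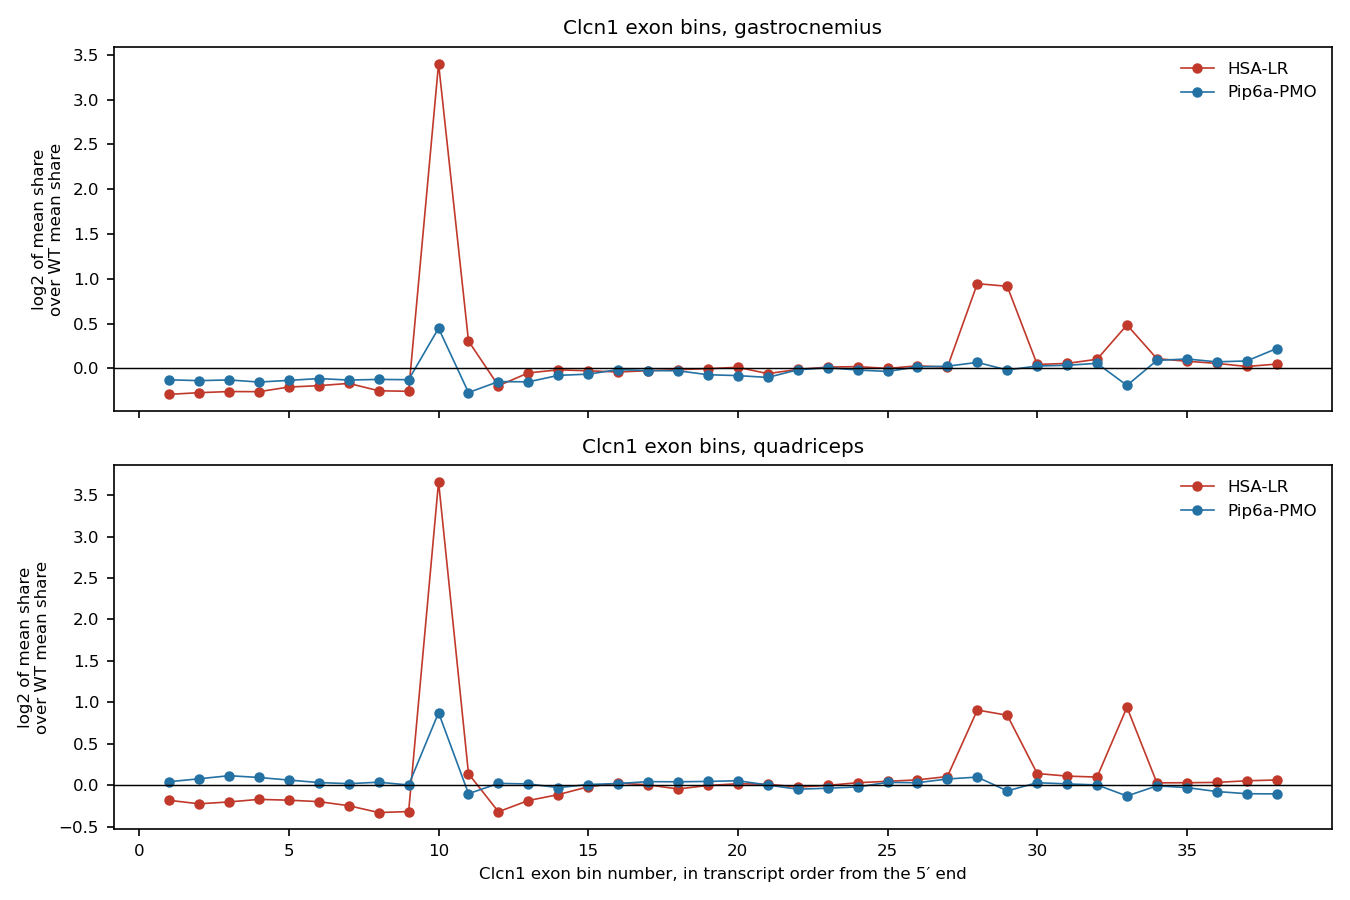
Log2 ratio of the mean share of each Clcn1 exon bin to its WT mean share (vertical axis) by bin number from the 5′ end (horizontal axis), for HSA-LR and treated mice, 3 per group, in the gastrocnemius above and the quadriceps below. Bin 10, exon 7a, rises by 3.40 and 3.66 in HSA-LR mice, bins 28, 29 and 33 rise less, and bins 1 to 9 of the HSA-LR mice lie below 0. Bin 33 was not called against WT in either muscle, and its shares in HSA-LR and WT mice overlapped in both.

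Beyond exon 7a, a further pair of Clcn1 bins was called, both toward the 3′ end of the gene: bin 28, the exon with its own stop printed above, and bin 29, an intron stretch of 562 bases (chromosome 6, 42312492 to 42313053) that the retained-intron transcript Clcn1-209 keeps. Bin 29 held 0.454%, 0.846% and 0.870% of Clcn1 counts in WT, 1.35%, 1.32% and 1.42% in HSA-LR and 0.692%, 0.818% and 0.635% in treated gastrocnemius. The HSA-LR mice lay above all others, with log2 changes of 0.94 ± 0.18 (adjusted P = 0.000390) against WT and -0.92 ± 0.18 (adjusted P = 0.00133) with treatment by diffSpliceDGE. In the quadriceps the log2 changes were 0.84 ± 0.18 (adjusted P = 0.0441) and -0.93 ± 0.18 (adjusted P = 0.0161) in edgeR's diffSpliceDGE. Bin 28 was called in the gastrocnemius, with 0.95 ± 0.21 (adjusted P = 0.00660) and -0.87 ± 0.21 (adjusted P = 0.0592), and not in the quadriceps, with 0.89 ± 0.21 (adjusted P = 0.176) and -0.83 ± 0.21 (adjusted P = 0.407) by diffSpliceDGE. Against its neighboring exons, a measure added after the values were seen, it stood at 10.9% ± 3.52 in WT, 20.3% ± 2.89 in HSA-LR and 11.1% ± 0.222 in treated gastrocnemius (SD, n = 3). These shares rested on 72 to 145 counts of bin 28 a library in WT, 117 to 122 in HSA-LR and 76 to 117 in treated gastrocnemius. The calls of both bins against WT in the gastrocnemius were lost without WT mouse 1, which had the lowest share of each bin in that muscle, and that of bin 28 also without HSA-LR mouse 3. In the quadriceps, the call of bin 29 against WT was lost without HSA-LR mouse 1 or 3, treated mouse 1 or WT mouse 1, and with the coverage covariate, and its treatment call without HSA-LR mouse 1 or 3 or treated mouse 1 or 3. Bin 28 lost its treatment call in the gastrocnemius without any one HSA-LR mouse, treated mouse 1 or 2, or WT mouse 2, with the coverage covariate and with limma voom. The quadriceps values of bin 28 were called against WT without WT mouse 2, with the mouse number as a block or with a minimum of 10 counts per library, and with treatment under the coverage covariate.

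The Clcn1 exons before exon 7a were compared with those after it, a measure chosen after the values were seen and so given with no test. The counts of bins 1 to 9 were 52.0%, 53.7% and 49.3% of those of bins 13 to 27 in WT gastrocnemius, 45.5%, 44.7% and 42.7% in HSA-LR and 50.9%, 52.7% and 41.6% in treated mice. In the quadriceps the values were 52.3%, 50.9% and 52.7% in WT, 44.6%, 43.8% and 44.3% in HSA-LR and 52.7%, 52.7% and 54.3% in treated mice. The HSA-LR mice lay below the WT mice in both muscles, with means of 44.3% against 51.7% in the gastrocnemius and 44.2% against 52.0% in the quadriceps. The treated mice lay above the HSA-LR mice in the quadriceps, and in the gastrocnemius mouse 3, the library of low 5′ coverage, lay below all HSA-LR mice. None of bins 1 to 9 was called on its own by diffSpliceDGE.

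Cacnb1 was called in exon use but not in level. The 20-base exon 7, bin 15, lies in Cacnb1-201 and Cacnb1-205. Its count in WT mice was 2.26% of the mean count of the adjacent bins 14 and 16 in each muscle, a measure added after the values were seen. It was 4.89% and 6.08% in HSA-LR gastrocnemius and quadriceps, and 2.64% and 2.71% in treated mice. Bin 14 is exon 8 of Cacnb1-201. Bin 16 lies between exons 6 and 7 of that transcript and is not part of it. In Cacnb1-202 and Cacnb1-203, which lack bin 15, bin 16 is by its position exon 7, between bins 17 (exon 6) and 14 (exon 8). The measure thus sets bin 15 partly against the exon that these transcripts hold in its place. It is not a ratio to both neighboring exons. Bin 15 held 0.105%, 0.169% and 0.145% of Cacnb1 counts in WT, 0.333%, 0.347% and 0.245% in HSA-LR and 0.190%, 0.144% and 0.141% in treated gastrocnemius. These shares rested on 39, 69 and 66 counts in WT, 135, 138 and 85 in HSA-LR and 78, 62 and 50 in treated mice. Quadriceps shares were 0.101%, 0.196% and 0.125%, then 0.338%, 0.426% and 0.338%, then 0.167%, 0.151% and 0.181% in the same order. The HSA-LR mice lay above all others in both muscles. The log2 change was 1.14 ± 0.18 (adjusted P = 0.00132) and 1.37 ± 0.21 (adjusted P = 0.000240) against WT and -0.98 ± 0.18 (adjusted P = 0.0297) and -1.12 ± 0.21 (adjusted P = 0.0149) with treatment by diffSpliceDGE. Bin 13, the 292 bases directly after the following exon that are kept in the processed transcript Cacnb1-206, rose beside it by 1.08 ± 0.19 (adjusted P = 0.00772) and 1.16 ± 0.23 (adjusted P = 0.0307). It held 41 to 60 counts a library in WT and 76 to 118 in HSA-LR gastrocnemius. It fell with treatment in the gastrocnemius by 1.001 on the log2 scale (adjusted P = 0.0456), and in the quadriceps the change of -0.61 ± 0.22 was not called (adjusted P = 1) by diffSpliceDGE. The call of bin 13 against WT was lost without HSA-LR mouse 2 or WT mouse 2 in the gastrocnemius, and without HSA-LR mouse 2, WT mouse 1 or WT mouse 3, with the coverage covariate and with limma voom in the quadriceps. Its treatment call in the gastrocnemius was lost without HSA-LR mouse 1 or 2 or treated mouse 1 and with the coverage covariate. With treatment, bin 15 was not called without HSA-LR mouse 1 or 2 or treated mouse 2 or with the coverage covariate in the gastrocnemius, nor without HSA-LR mouse 2 or treated mouse 1 or 2 in the quadriceps.

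In the quadriceps, the first exons of Cacnb1 moved as well. Bins 24 and 23 are exons 1 and 2 of 4 coding transcripts, while bin 22 is the first exon of the shorter Cacnb1-204. Bin 23 held 0.416%, 0.463% and 0.689% in WT, 1.09%, 1.05% and 1.14% in HSA-LR and 0.758%, 0.851% and 0.680% in treated quadriceps. The log2 change against WT was 1.06 ± 0.17 (adjusted P = 0.000815) for bin 23 and 0.98 ± 0.17 (adjusted P = 0.00390) for bin 24 by diffSpliceDGE, the latter lost without WT mouse 2. With treatment it was -0.54 ± 0.17 and -0.37 ± 0.17, not called. In the gastrocnemius these bins gave 0.06 ± 0.15 and -0.13 ± 0.15 against WT and -0.11 ± 0.15 and 0.02 ± 0.15 with treatment, and the difference between the muscles was not tested. Bin 22 held 1.99%, 1.73% and 1.82% of the gene in WT, HSA-LR and treated quadriceps.

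Cacna1s exon 29 encodes part of an extracellular loop of the pore, and its skipping is known from human DM1 muscle. Against its neighboring exons it stood at 86.3%, 84.3% and 84.4% in WT, 70.6%, 69.1% and 68.6% in HSA-LR and 86.2%, 85.1% and 85.6% in treated gastrocnemius. The quadriceps values were 86.5%, 86.0% and 85.1% in WT, 72.1%, 72.8% and 73.8% in HSA-LR and 86.2%, 86.2% and 85.2% in treated mice. The HSA-LR mice did not overlap with either other group, and the treated mice lay among the WT mice. Set against the largest bin of the gene instead, the log2 ratio for treated minus HSA-LR gastrocnemius was 0.0927, against 0.32 as a share of all Cacna1s counts, and that for treated minus WT was -0.16, against 0.0064. In treated gastrocnemius, mice 1 and 2 stood at 38.75% and 38.32% of that bin, above the HSA-LR mice at 31.97% to 33.34%. Mouse 3, the library of low 5′ coverage, stood at 26.8%, and the part of coverage in this value was not tested. As a share of all Cacna1s counts the exon fell from 1.79% to 1.44% in HSA-LR gastrocnemius and was 1.79% after treatment, and it was 1.78%, 1.48% and 1.75% in the quadriceps. Both differences, HSA-LR minus WT and treated minus HSA-LR, had P = 0.1 in each muscle in the two-sided exact permutation test, the smallest possible, and treated minus WT had P = 0.9 and 0.6. The diffSpliceDGE log2 changes of -0.31 ± 0.16 and -0.25 ± 0.11 for HSA-LR minus WT and 0.32 ± 0.16 and 0.24 ± 0.11 for treatment were not called (adjusted P = 1 in each). The bin after it, 42 bases of retained intron, is named after its values were seen, and held 89, 109 and 73 counts in WT, 158, 152 and 101 in HSA-LR and 110, 66 and 58 in treated gastrocnemius. In HSA-LR minus WT, diffSpliceDGE called it in the gastrocnemius only with the 2 groups fitted alone and without treated mouse 3, and limma voom called it in the quadriceps, there with treatment too.

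Cacna2d1 exon 19 was chosen after the values were seen, so it is given with no test. Against its neighboring exons it stood at 103%, 99.3% and 94.6% in WT, 67.4%, 56.5% and 61.5% in HSA-LR and 95.7%, 91.7% and 97.8% in treated gastrocnemius. In the quadriceps it was 96.2%, 102% and 105% in WT, 68.5%, 76.0% and 75.2% in HSA-LR and 97.7%, 97.8% and 103% in treated mice. HSA-LR mice were lowest in both muscles, and the exon's share of all gene counts overlapped between WT and HSA-LR mice in both muscles.

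**Figure D4:**
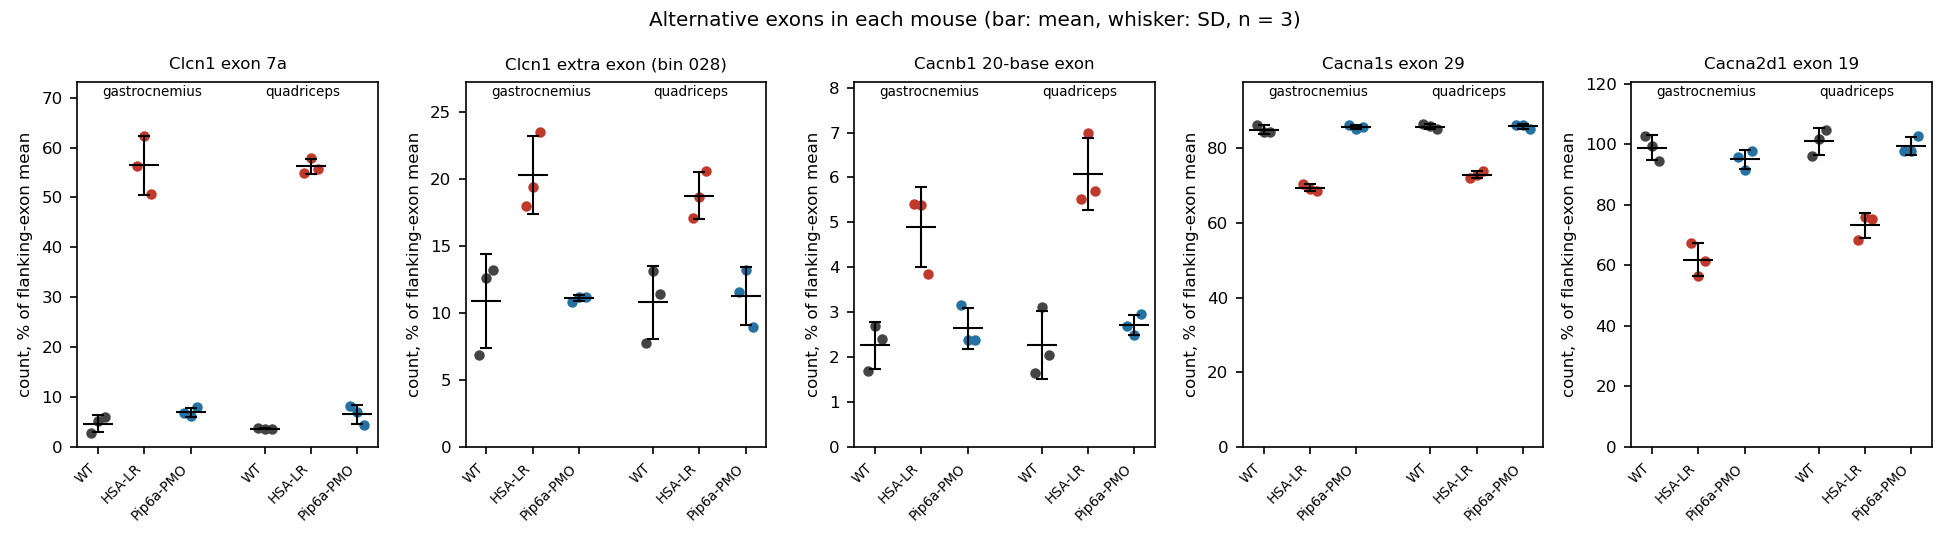
Count of 5 alternative exons as a percent of the mean count of their neighboring exons (vertical axis, linear from 0) in the WT, HSA-LR and Pip6a-PMO treated groups of each muscle. For Cacnb1 the denominator is the adjacent bins 14 and 16, and bin 16 is not an exon of Cacnb1-201. Each point is a mouse, the bar is the mean and the whisker the SD. In HSA-LR mice the Clcn1 and Cacnb1 exons lie above, and the Cacna1s and Cacna2d1 exons below, all WT and treated mice.

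The other genes of membrane excitability were read from a list of 65 channels, β subunits and pumps, of which 63 were found by symbol and 62 passed the filter in each muscle. In HSA-LR minus WT, 13 of 62 were called in the gastrocnemius (7 higher, 6 lower, 15.5% of all genes called) and 19 of 62 in the quadriceps (9 higher, 10 lower, 20.3% of all genes called). The median log2 FC of the list was 0.06 and -0.07, against -0.01 and 0.01 over all genes. With treatment 11 (6 higher, 5 lower) of 62 were called in the gastrocnemius and 10 (8 higher, 2 lower) in the quadriceps, where 10% and 13.8% of all genes were called. Treated minus WT left 2 and 1, with Kcnab1 called in both muscles, against 1.04% and 1.41% of all genes.

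Kcnab1, a β subunit of voltage-gated potassium channels, had the smallest P of the list in both muscles. In the gastrocnemius its level was 105, 81.7 and 35.8 CPM in WT, 3.63, 3.51 and 3.29 CPM in HSA-LR and 12.1, 21.9 and 16.6 CPM in treated mice. Its quadriceps level was 60.05, 90.3 and 30.03 CPM in WT, 6.13, 3.85 and 2.54 CPM in HSA-LR and 9.61, 13.4 and 13.9 CPM in treated mice. The 3 groups did not overlap in either muscle. The log2 FC was -4.43 ± 0.39 (adjusted P = 0.000330) and -3.85 ± 0.44 (adjusted P = 0.00107) for HSA-LR minus WT and 2.29 ± 0.36 (adjusted P = 0.0105) and 1.57 ± 0.41 (adjusted P = 0.0549) with treatment by edgeR. Treated mice lay below WT mice, with log2 FCs of -2.14 ± 0.35 (adjusted P = 0.0379) and -2.28 ± 0.41 (adjusted P = 0.0575) by edgeR. These calls against WT were lost without WT mouse 2 or treated mouse 1 and with the mouse number as a block in each muscle. In the gastrocnemius that call was also lost with the 2 groups fitted alone, and in the quadriceps without WT mouse 1, HSA-LR mouse 2 or any treated mouse, and with the coverage covariate. The quadriceps treatment call was lost without HSA-LR mouse 2 or treated mouse 2 or 3 and with the coverage covariate.

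The voltage-gated potassium channel Kcna5 was lower in the quadriceps, with a log2 FC of -1.21 ± 0.20 (adjusted P = 0.00562), and rose with treatment by 0.97 ± 0.20 (adjusted P = 0.0254) in edgeR. In the gastrocnemius it had -0.53 ± 0.19 (adjusted P = 0.119) for HSA-LR minus WT, and treatment gave 0.70 ± 0.19 (adjusted P = 0.0687) by edgeR. The treatment call there was lost without WT mouse 2, any HSA-LR mouse or treated mouse 1 or 2, and in 3 other settings. Without treated mouse 3, with the coverage covariate, with the 2 groups fitted alone or by DESeq2, Kcna5 was called against WT.

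Kcnq5, which also encodes a voltage-gated potassium channel, rose in HSA-LR gastrocnemius and fell with treatment. It stood at 13.3 to 14.2 CPM in WT, 25.1 to 30.1 CPM in HSA-LR and 16.8 to 18.7 CPM in treated mice, with log2 FCs of 0.995 ± 0.09 (adjusted P = 0.000349) and -0.61 ± 0.09 (adjusted P = 0.00831) by edgeR. Its quadriceps log2 FCs were 0.57 ± 0.25 (adjusted P = 0.167) and 0.17 ± 0.24 (adjusted P = 0.696), not called by edgeR, though the former was called without HSA-LR mouse 1 or with the mouse number as a block. Cacnb4, a β subunit typical of brain, was scarce, at 0.201 to 0.344 CPM in WT and 0.608 to 0.980 CPM in HSA-LR gastrocnemius. It rose by 1.59 ± 0.27 (adjusted P = 0.00746) and 2.52 ± 0.35 (adjusted P = 0.00256) in HSA-LR and fell with treatment by 1.41 (adjusted P = 0.0224) and 1.90 (adjusted P = 0.0162) on the log2 scale in edgeR.

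**Figure D5:**
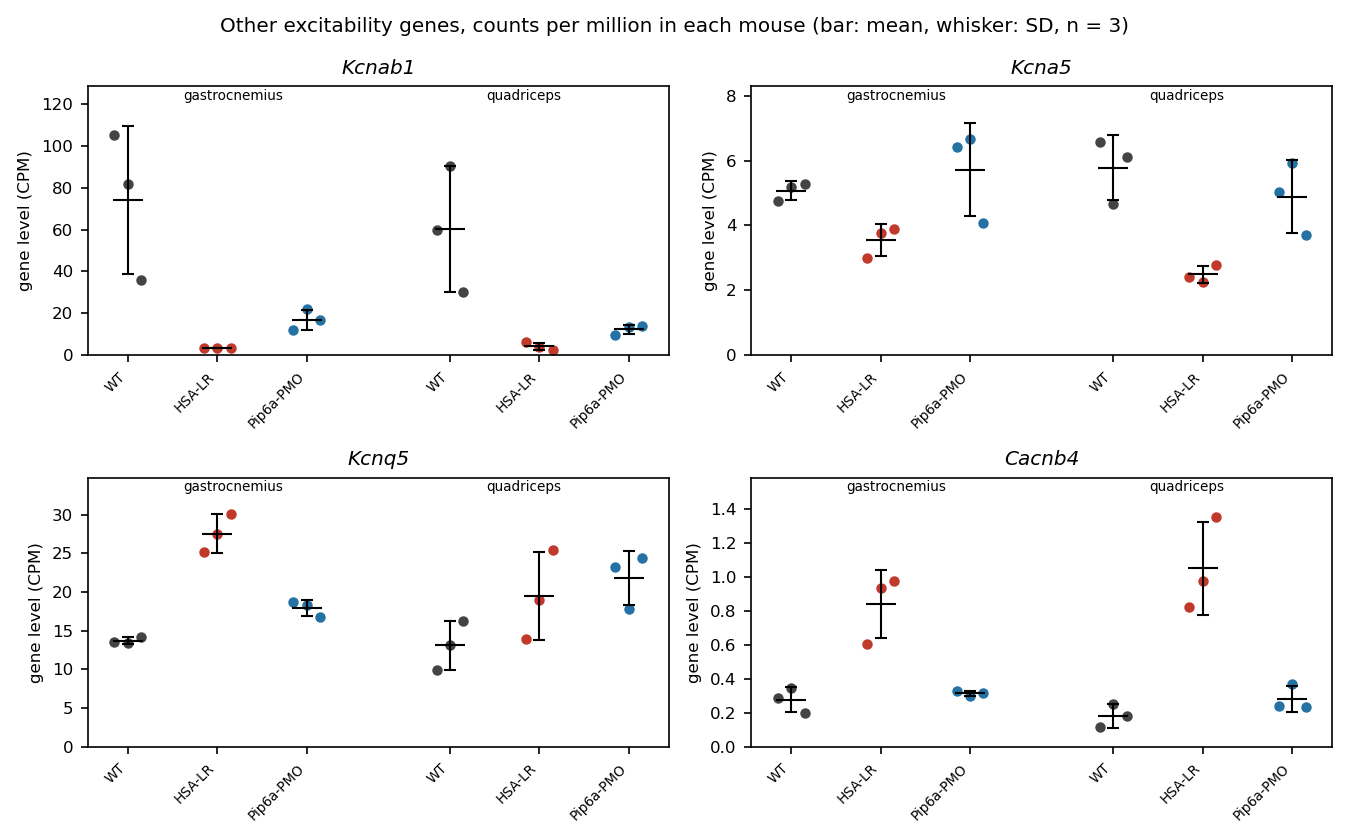
Level in CPM (vertical axis, linear from 0) of 4 other excitability genes, Kcnab1, Kcna5, Kcnq5 and Cacnb4, in the WT, HSA-LR and Pip6a-PMO treated groups. Each point is a mouse, the bar is the mean and the whisker the SD. Kcnab1 falls from 30.03 CPM or more in WT to 6.13 CPM or less in HSA-LR mice, and its treated mice lie between.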

How the data were processed

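Per the labels, polyA-selected RNA was sequenced with a stranded protocol, and the submitters' processing notes name CASAVA, HISAT, featureCounts 1.5.0 and the build GRCm38. The values that the authors deposited are raw counts, the read pairs over each exon bin, unnormalized and unpooled. Entries that name no gene (2.82% to 4.14% of a library) were left out. Bins were placed by GENCODE M21, where 41211 of 41211 genes with the same version had the same number of bins.

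Gene counts (sums of bins) were filtered with filterByExpr (minimum count 10, minimum total 15), scaled by TMM and tested with glmQLFTest (edgeR 4.0.16, limma 3.58.1, DESeq2 1.42.0, R 4.3.3) fitting the 9 libraries of each muscle together. Differences between muscles were fitted in all 18, with the muscles of a mouse not paired. Bins were tested with diffSpliceDGE. Features were called at an adjusted P under 0.1. For single shares, an exact permutation test (two-sided) was run. Each group had 3 mice, and P values measure the spread between these. The scripts were tested on simulated data.

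The members and lists were chosen with earlier results of these data known. The text names every member, Clcn1 exon 7a, Cacna1s exon 29, up to 4 called bins per member with the smallest P in HSA-LR minus WT, the 4 list genes with the smallest P per muscle and the 2 genes most like each member, of which some are not reported here. Markers of 9 fiber or cell types were summed. Alternatives were DESeq2, limma voom, RLE normalization, other count minimums, the largest bin of a gene, 2 groups alone, the mouse number as a block, the 5′ to 3′ coverage as a covariate, other denominators for shares, each mouse left out, and, added after seeing the data, Kcnn3 without its last bin, the counts of 3 further exons over their neighbors and the counts of Clcn1 before over after exon 7a. The labels number the mice alike in both muscles, and muscles with one number are taken as one mouse: their deviations from the group means correlated with a median r of 0.313 (0.169 to 0.717, 9 pairs). Numbers shared by different groups name different mice (r from -0.409 to 0.383). These ranges overlap, and the pairs of different mice were of the same muscle. The correlations therefore cannot show that a shared number marks the same mouse, which is taken from the labels. The human transgene was not analysed here. Genes on the other strand overlap Clcn1 bin 38, Cacnb1 bin 26 and Cacna1s bins 46 to 56, and whether the counting used strand is not given in the sources used here.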

Additional observations from a re-analysis of the deposited data

How the results depend on the processing

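The following counts of called features moved by over 1.5 times. With the coverage covariate, treated minus HSA-LR gave 1 channel gene and 2 of their bins in the gastrocnemius and 2 channel genes and 5 listed excitability genes in the quadriceps, and treated minus WT gave 0 channel genes and 0 listed genes in the quadriceps. In treated minus WT, DESeq2 called 4 listed genes in the gastrocnemius, and 2 channel genes and 6 listed genes in the quadriceps. Limma voom called 8 bins in HSA-LR minus WT in the gastrocnemius. With 2 groups fitted alone, the gastrocnemius gave 7 listed genes in treated minus HSA-LR and 0 in treated minus WT. Different mice share a number across groups only by name, and with that number as a replicate block the gastrocnemius gave 6 listed genes in treated minus HSA-LR and 0 in treated minus WT. The block gave 2 channel genes, against 3, in HSA-LR minus WT there, which is not over 1.5 times. Under the block, Cacng1 in HSA-LR minus WT and Kcna5 with treatment in the gastrocnemius and Kcnab1 against WT in both muscles lost their calls, Kcnq5 and Clcn1 bin 28 in HSA-LR minus WT in the quadriceps gained one, and no other named gene or bin changed its call. Apart from mice left out, 751 single values under other settings held their direction and call, 22 lost a call, 15 gained one and 16 changed sign. With mice left out, 819 held both, 80 lost a call, 7 gained one and 30 changed sign. The cause of these shifts was not tested.

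With each mouse left out in turn, channel genes called in treated minus HSA-LR ranged from 0 to 2 in the gastrocnemius and from 2 to 5 in the quadriceps, and in treated minus WT from 0 to 1 in the gastrocnemius. Their bins ranged from 3 to 6 in HSA-LR minus WT in the gastrocnemius, and in treated minus HSA-LR from 2 to 5 in the gastrocnemius and 1 to 3 in the quadriceps. Listed genes ranged from 6 to 21 in HSA-LR minus WT in the gastrocnemius, from 4 to 11 and 5 to 14 in treated minus HSA-LR in the gastrocnemius and quadriceps, and from 0 to 4 and 0 to 2 in treated minus WT.

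As log2 ratios of shares, exon 7a gave 3.98 for HSA-LR minus WT and -3.11 for treatment in the quadriceps with the neighboring exons as denominator. The Cacna1s exon over the largest bin of its gene gave -0.25, 0.0927 and -0.16 for HSA-LR minus WT, treated minus HSA-LR and treated minus WT in the gastrocnemius, and 0.32 and 0.0944 for the latter comparisons in the quadriceps.

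All sign changes of the log2 values of genes and bins were of values that were not called. With the largest bin, Cacna1s (-0.00384), Cacnb1 (0.0149) and Cacna2d1 (-0.15) turned in HSA-LR minus WT and Cacna1s (0.13) and Cacna2d1 (0.0303) in treated minus HSA-LR in the gastrocnemius, Kcnj2 (0.00406) in treated minus HSA-LR in the quadriceps, and in treated minus WT Clcn1 (0.0636 in the gastrocnemius, -0.0240 in the quadriceps) and Scn4a (-0.0549, quadriceps). With the coverage covariate, Cacnb1 (0.00719) turned in HSA-LR minus WT and Kcnj2 (0.19) in treated minus HSA-LR in the gastrocnemius, and Clcn1 (-0.000276) and Scn4a (-0.0627) in treated minus WT in the quadriceps. With at least 10 counts in every library, Cacnb1 (0.000640) turned in HSA-LR minus WT in the gastrocnemius and Kcnj11 (-0.000932) in treated minus HSA-LR in the quadriceps, and with the replicate block Kcnj2 (4.60e-05) in the latter. With mice left out, HSA-LR minus WT in the gastrocnemius ranged from -0.0240 to 0.0834 for Cacna1s, -0.0415 to 0.00958 for Cacnb1, -0.11 to 0.24 for its bin 23 and -0.33 to 0.0785 for its bin 24, and in the quadriceps from -0.0457 to 0.13 for Cacnb1 and -0.41 to 0.0900 for Cacna2d1. Treated minus HSA-LR ranged in the gastrocnemius from -0.34 to 0.17 for Kcnj2, -0.25 to 0.0621 for Cacnb1 bin 23 and -0.18 to 0.23 for bin 24, and in the quadriceps from -0.0325 to 0.19 for Cacnb1, -0.19 to 0.10 for Kcnj2, -0.11 to 0.13 for Kcnj11 and -0.0201 to 0.41 for Kcnq5. Treated minus WT in the quadriceps ranged from -0.0937 to 0.20 for Clcn1 and -0.0875 to 0.12 for Scn4a.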
